A study of Rattus norvegicus with 48 samples.

Results

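The main effect of ischemic preconditioning on gene expression in rat liver was taken as the mean of the 2 preconditioned group means minus the mean of the 2 other ischemic group means. The groups were chosen by sample title alone, and they hold 40 of the 48 arrays of the series, 20 preconditioned and 20 not, each from the liver of a single male Wistar rat. The preconditioned groups were IPC, with 10 min of liver ischemia and 10 min of reperfusion before the main insult, and IPC+IPO, which had this step and postconditioning as well. The other ischemic groups were IRI, ischemia and reperfusion with no conditioning, and IPO, postconditioning alone. Postconditioning followed the main ischemia at once, as 3 cycles that opened the blood flow for 30 sec and closed it again for 30 sec. Each of the 4 groups had 10 rats, the main ischemia stopped flow to the whole liver for 30 min, and a biopsy of the right lobe was taken after 30 min of reperfusion. The 8 sham rats had a laparotomy with no ischemia. Their levels are given beside the others, and their arrays also enter the fit that estimates the spread between rats. All rats were anaesthetised with Hypnorm and Midazolam. A preconditioned rat had thus also had an additional ischemia and additional time before sampling, which cannot be told apart from an effect on the later insult.

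Ischemic preconditioning is a short interruption of blood flow that makes an organ more tolerant of a later, longer one. In liver it is known to act partly through adenosine and its receptors, nitric oxide and protein kinases. Reperfusion itself switches on immediate-early genes, many of which encode transcription factors and feedback regulators. Their transcription relies on proteins already in the cell, with no new protein needed. Such fast transcripts are known to lead the response in the first hour after flow returns, together with genes of stress hormones and nutrient state.

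The design implies 1 pooled comparison and the 2 comparisons it averages. The first of these, IPC against IRI, is preconditioning without postconditioning, and the second, IPC+IPO against IPO, is preconditioning in postconditioned livers. They share no arrays. Their difference is the interaction, which asks whether the effect of preconditioning depends on postconditioning. All levels below are log2 values of Affymetrix arrays, differences are in log2 units with the standard error (SE) of the fit, and p-values come from limma fitted over all 5 groups. An adjusted p (Benjamini-Hochberg over 14506 genes) under 0.05 was needed for a call.

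Before the results, 1 property of the arrays has to be given, because it varied between arrays. The spread of an array, the SD of its log2 values over all genes, averaged 1.85 ± 0.083 in IPC, 1.857 ± 0.153 in IPC+IPO, 1.768 ± 0.111 in IRI, 1.908 ± 0.065 in IPO and 1.723 ± 0.134 in sham (SD, n = 10 each, 8 for sham). The preconditioned arrays averaged 1.853 and the other ischemic arrays 1.838, a difference of 0.0154 (two-sided permutation test of labels within each comparison, p = 0.674). The 2 component comparisons differed in opposite directions, by 0.0818 in IPC minus IRI and by -0.0511 in IPC+IPO minus IPO. Array medians lay between 5.78 and 5.92. The lowest spread belonged to a single IPC+IPO array (1.498) and a single IRI array (1.537). Results that move with this spread are therefore also given with it as a covariate, or without the 14 arrays of lowest spread (1 IPC, 2 IPC+IPO, 4 IRI, 1 IPO and 6 sham arrays). The hepatocyte markers, albumin among them, were bright on every array: the mean log2 level of 15 of them lay between 11.74 and 12.23 in IPC, 11.55 and 12.26 in IPC+IPO, 11.76 and 12.15 in IRI, and 11.99 and 12.2 in IPO.

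**Figure D1:**
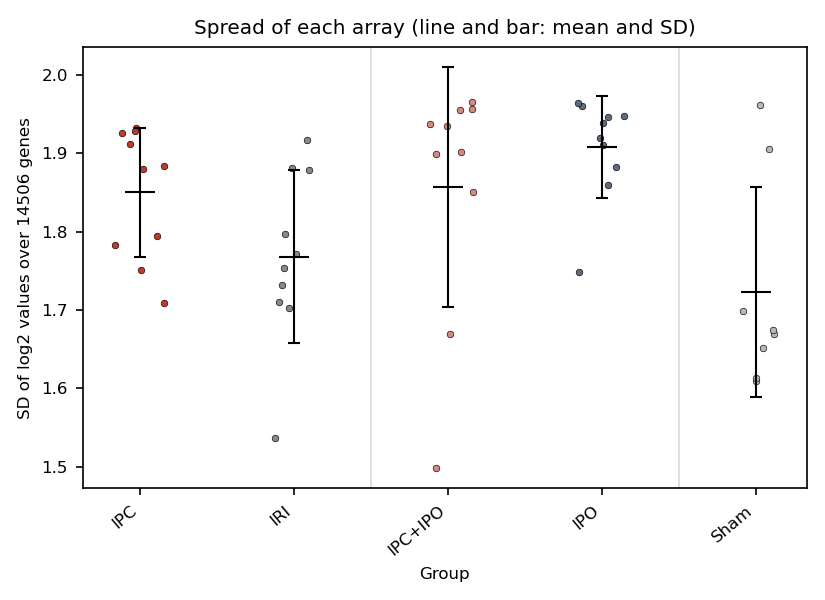
The vertical axis is the SD of the log2 values of an array over 14506 genes, with a point per array and a line and bar for the mean and SD of each group. The 20 preconditioned arrays average 1.853 and the 20 other ischemic arrays 1.838, while IPC lies above IRI (a difference of 0.0818) and IPC+IPO below IPO (a difference of -0.0511).

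No gene was called in the main effect of preconditioning: 0 of 14506 genes (0%) passed, and the smallest adjusted p was 1. At an unadjusted p under 0.05 there were 475 genes (3.27%), of which 211 (1.45%) were higher and 264 (1.82%) lower in preconditioned livers. The smallest unadjusted p, that of Ushbp1, was 0.000102. The differences were small. Their SD over genes was 0.0955, against a median SE of 0.0841, and 17 genes stood at least 1.5-fold apart. For 14308 genes (98.6%) the 95% interval of the difference lay within 1.5-fold in both directions, and for 14480 (99.8%) within 2-fold. Those 17 genes were Zfp36, Igfbp1, Gdf15, Gadd45a, Apold1, Egr1, Trib1, Pbsn, Atf3, Cish, Fgf21, Rhob, Myc, Mt2A, Pdk4, Retsat and Ly6al, and of these only Pbsn was lower in preconditioned livers. Pbsn, Atf3, Retsat and Ly6al fall outside the rule for named genes and were chosen for their size after their values were seen. With arrays weighted by their quality the fit called 51 genes (0.352%), and without the 14 arrays of lowest spread it called 1, Retsat, the enzyme retinol saturase, at 0.931 ± 0.16 (SE; limma, adjusted p = 0.0207). The genes described next are thus the top of a ranking in which nothing passed, and their values are given as such.

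Immediate-early genes and the regulators that act with them held many of the larger differences, beside single genes of other kinds such as Igfbp1 and Gdf15. The lists used here and below were chosen with earlier results of these data known, and their members share arrays. Shares of a list set beside those of all genes are thus descriptions. Of 34 measured immediate-early genes, most of them transcription factors, 0 passed the test, 29 stood above 0 in the main effect, and 12 were higher at an unadjusted p under 0.05 (35.3% of the list, against 1.45% of all genes). Their median difference was 0.172, against 0 for all 14506 genes, of which 49.9% stood above 0. It was 0.167 with array spread as a covariate, 0.195 without the 14 arrays of lowest spread, and between 0.155 and 0.208 when any single array was left out. In the component comparisons the median was 0.327 in IPC against IRI and 0.071 in IPC+IPO against IPO, and 0.271 and 0.119 with the covariate. As deposited, both differences were above 0 for 18 of the 34 genes (52.9%), and for 12.6% of all genes.

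Egr1 encodes a zinc-finger factor that is a standard example of an immediate-early gene, and Zfp36 encodes tristetraprolin, which binds AU-rich messenger RNAs and speeds their decay. Serum response factor drives many genes of this class through the CArG box. This motif was looked for on both strands of the RefSeq promoters (GRCr8, 250 bases before to 50 after the gene start), and 153 of 11968 promoters of tested genes held it (1.28%). Among the immediate-early genes it was found in 5 of 22 with a promoter entry (22.7%), namely Zfp36, Srf, Klf6, Egr1 and Egr2. It was found in 1 of 12 promoters among the 15 genes ranked first as higher, and the Apold1 promoter held none. The promoters of the 2 largest members of this class are shown 5′ to 3′ on the coding strand, with the CArG boxes in capitals. That of Zfp36 lies at chr1:92799059-92799358 on the minus strand and that of Egr1 at chr18:26736828-26737127 on the plus strand.
Zfp36: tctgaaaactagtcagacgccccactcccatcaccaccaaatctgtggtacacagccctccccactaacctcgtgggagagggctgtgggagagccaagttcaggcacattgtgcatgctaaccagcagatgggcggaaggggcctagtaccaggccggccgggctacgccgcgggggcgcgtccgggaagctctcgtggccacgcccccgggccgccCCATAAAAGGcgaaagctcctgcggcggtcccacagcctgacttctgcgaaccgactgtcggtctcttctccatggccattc
Egr1: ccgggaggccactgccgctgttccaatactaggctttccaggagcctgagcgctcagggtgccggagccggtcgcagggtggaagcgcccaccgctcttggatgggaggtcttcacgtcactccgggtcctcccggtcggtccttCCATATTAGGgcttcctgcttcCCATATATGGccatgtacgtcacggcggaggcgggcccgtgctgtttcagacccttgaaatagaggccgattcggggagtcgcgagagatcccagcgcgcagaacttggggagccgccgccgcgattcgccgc
The match is a description of these letters, not of binding.

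Zfp36 had the largest difference of all genes tested. Its log2 level was 7.5 to 10.87 in IPC livers (median 9.63), against 7.19 to 9.1 in IRI livers (median 7.94). In postconditioned livers it was 7.54 to 10.42 in IPC+IPO (median 9.72), against 8.07 to 10.56 in IPO (median 9.08), and sham livers had 6.37 to 8.76 (median 7.01). Levels overlapped in both comparisons, yet 9 of 10 IPC arrays lay above the IRI median and 8 of 10 IPC+IPO arrays above the IPO median. The main effect was 0.851 ± 0.253 (95% interval 0.342 to 1.36; unadjusted p = 0.00153, adjusted p = 1), made of 1.391 ± 0.358 without postconditioning and 0.310 ± 0.358 with it. Egr1 was 7.76 to 10.6 in IPC (median 9.18), against 6.9 to 9.13 in IRI (median 7.97), and 7.38 to 10.03 in IPC+IPO (median 8.76), against 7.48 to 10.1 in IPO (median 8.46). The main effect of Egr1 was 0.731 ± 0.248, made of 1.269 ± 0.351 without postconditioning and 0.192 with it. Myc, the growth regulator, had a main effect of 0.631 ± 0.207, again larger in IPC against IRI (1.002) than in IPC+IPO against IPO (0.261). None of these 3 genes had an interaction that passed the test.

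A pair of further regulators of rapid signalling stood near the top. Gadd45a, a stress sensor of the p53 and growth-arrest response, was 7.56 to 10.86 in IPC (median 10.22), against 7.68 to 9.98 in IRI (median 8.84), and 7.48 to 10.58 in IPC+IPO (median 9.73), against 7.48 to 10.52 in IPO (median 8.82). Trib1, a pseudokinase that steers transcription factors to degradation, was 6.52 to 9.34 in IPC (median 7.94), against 5.93 to 7.91 in IRI (median 7.1), and 6.01 to 8.49 in IPC+IPO (median 7.85), against 6.2 to 8.42 in IPO (median 7.08). For both genes the medians of the preconditioned groups lay above those of their counterparts, with overlap in each comparison, and sham livers were lowest (medians 7.19 for Gadd45a and 6.27 for Trib1). The main effects were 0.794 ± 0.258 for Gadd45a (unadjusted p = 0.00346) and 0.713 ± 0.219 for Trib1 (unadjusted p = 0.00209), both with an adjusted p of 1. The list of MAPK phosphatases and feedback inhibitors, which end kinase signals, had a median of 0.162 over 17 genes. Of these 16 stood above 0 (94.1%, against 49.9% of all genes) and 6 were higher at an unadjusted p under 0.05 (35.3%, against 1.45%). The list median was 0.301 in IPC against IRI and 0.056 in IPC+IPO against IPO, with 6 and 1 genes higher at that level. With array spread as a covariate these medians were closer, at 0.175 and 0.128. Spry4, a feedback inhibitor of receptor tyrosine kinase signalling, had a main effect of 0.23 ± 0.088. Unlike the list medians, its difference was larger with postconditioning (0.391 ± 0.124) than without it (0.069 ± 0.124).

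**Figure D2:**
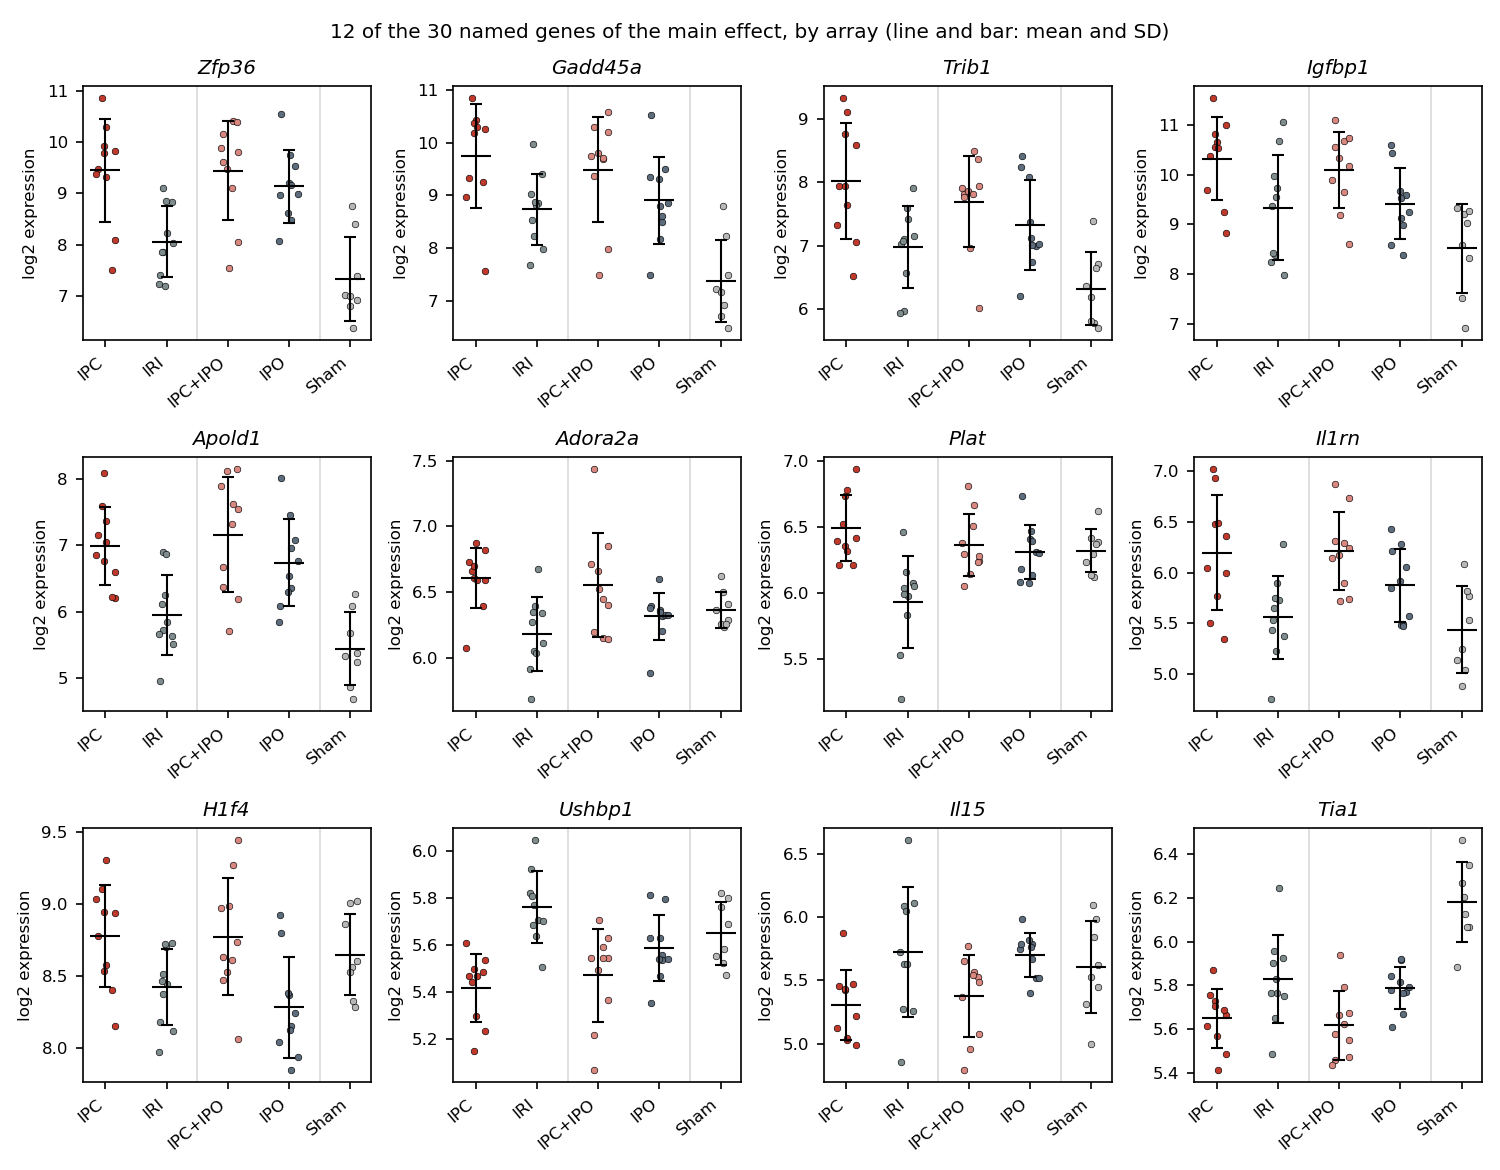
Log2 expression of 12 genes is plotted with a point per array, in the order IPC, IRI, IPC+IPO, IPO and sham, with a line and bar for the mean and SD. Zfp36, Gadd45a, Trib1, Igfbp1 and Apold1 have higher medians in IPC than in IRI and in IPC+IPO than in IPO, with overlapping arrays, Plat is higher in IPC than in IRI, and Ushbp1, Il15 and Tia1 are lower in IPC than in IRI.

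Genes of vessel tone, adenosine signalling and fibrinolysis had a median close to 0, but several members ranked high. The median over 28 genes was 0.037, with 18 above 0 (64.3%, against 49.9% of all genes) and 0 called. At an unadjusted p under 0.05, 7 were higher (25%, against 1.45% of all genes) and 1 lower (3.57%, against 1.82%). Adora2a, an adenosine receptor that widens vessels and restrains inflammatory cells, was 6.08 to 6.87 in IPC (median 6.63), against 5.69 to 6.68 in IRI (median 6.19), and 6.14 to 7.44 in IPC+IPO (median 6.49), against 5.89 to 6.6 in IPO (median 6.34). It was higher in both comparisons at an unadjusted p under 0.05, with a main effect of 0.329 ± 0.083 (95% interval 0.162 to 0.496; unadjusted p = 0.000246, adjusted p = 1). Apold1, an endothelial immediate-early gene, was 6.21 to 8.09 in IPC (median 6.95), against 4.96 to 6.9 in IRI (median 5.79). All 10 IPC arrays lay above the IRI median. In postconditioned livers Apold1 was 5.72 to 8.16 in IPC+IPO (median 7.43), against 5.85 to 8.02 in IPO (median 6.65), which overlapped almost entirely, and its main effect was 0.731 ± 0.201 (unadjusted p = 0.000646). Sinusoidal endothelial markers had a median of 0.051 over 15 genes. In bulk tissue a change in the number of cells of a type and a change in RNA per cell cannot be told apart, and the part of cell numbers in any of these differences was not tested.

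Plat and Apln were called in IPC against IRI and had differences near 0 in postconditioned livers. Plat, tissue plasminogen activator, was 6.21 to 6.94 in IPC (median 6.41), against 5.19 to 6.46 in IRI (median 6.01). It rose by 0.559 ± 0.113 (SE, n = 10 each; limma, adjusted p = 0.0472). In IPC+IPO it was 6.05 to 6.81 (median 6.29), against 6.08 to 6.74 in IPO (median 6.31), a difference of 0.050 ± 0.113, and the main effect was 0.305 ± 0.08. Apln, the vasodilator peptide apelin, was 5.82 to 6.09 in IPC (median 6.01), against 6.06 to 6.64 in IRI (median 6.3), and fell by 0.345 ± 0.071 (limma, adjusted p = 0.0475). Its difference in IPC+IPO against IPO was 0.005 ± 0.071, with medians of 6.04 and 6.06. In sham livers the medians were 6.33 for Plat and 6.07 for Apln, so that for both genes the IRI median lay farthest from that of sham. Lsm12, of the LSM family, rose by 0.451 ± 0.084 in IPC against IRI (limma, adjusted p = 0.0313), with -0.071 ± 0.084 in IPC+IPO against IPO. Or4c58, an olfactory receptor, fell by 0.482 ± 0.097 (limma, adjusted p = 0.0472), with 0.092 in postconditioned livers. These were the 4 calls of IPC against IRI (0.0276% of genes), and earlier results of these data had already named them. None was called with array spread as a covariate, or with only the 4 ischemic groups fitted.

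Hormone and fasting genes of the hepatocyte were next. Igfbp1, the binding protein of insulin-like growth factors that liver releases when insulin is low or stress hormones are high, was 8.83 to 11.55 in IPC (median 10.53), against 7.97 to 11.05 in IRI (median 9.46). In postconditioned livers it was 8.6 to 11.1 in IPC+IPO (median 10.25), against 8.38 to 10.59 in IPO (median 9.39). In each comparison 8 of 10 preconditioned arrays lay above the median of the other group, and the main effect was 0.832 ± 0.257 (95% interval 0.316 to 1.348; unadjusted p = 0.00216, adjusted p = 1). Of 19 glucocorticoid-induced genes 18 stood above 0 (94.7%, against 49.9% of all genes) and 0 passed, with a median of 0.215 (0.218 with array spread as a covariate). At an unadjusted p under 0.05, 7 were higher (36.8%, against 1.45% of all genes). The list median was 0.324 in IPC against IRI and 0.116 in IPC+IPO against IPO, and 0.193 and 0.154 with the covariate. Of 28 genes of fatty acid oxidation and other PPAR alpha targets 24 stood above 0 (85.7%), 8 were higher at an unadjusted p under 0.05 (28.6%) and 0 passed. That list had a median of 0.157 (0.119 with array spread as a covariate). Its medians in IPC against IRI and in IPC+IPO against IPO were 0.254 and -0.015 as deposited, and 0.127 and 0.11 with the covariate. Pdk4, the kinase that shuts off pyruvate oxidation in fasting, had 1.32 in IPC against IRI and -0.085 in IPC+IPO against IPO, and 1.14 and 0.03 with the covariate. The integrated stress response, the program that cells start when protein synthesis is impaired, had a median of only 0.045 over 20 genes (0.016 with the covariate). Of its genes 3 were higher at an unadjusted p under 0.05 (15%, against 1.45% of all genes). Fgf21 and Gdf15, hormones secreted under stress, were 2 of these 3. Fgf21 had 1.202 in IPC against IRI and 0.142 in IPC+IPO against IPO, and Gdf15 had 1.459 and 0.131. Cish, a feedback inhibitor of growth hormone signalling, had similar differences in both, 0.731 and 0.622, with a main effect of 0.677 ± 0.26. The lists share members, Zfp36, Gadd45a and Pdk4 among them, so their medians are not separate measurements.

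Macrophage markers and a few immune genes stood higher in preconditioned livers without passing the test. Of 16 Kupffer cell and macrophage markers 13 stood above 0 and 11 in both comparisons (68.8%, against 12.6% of all genes). Both shares are as deposited, where 26.8% of all genes had the same sign in both comparisons. That share was 48.6% with array spread as a covariate. The markers had a median of 0.225 (0.188 with array spread as a covariate), with 0.351 in IPC against IRI and 0.087 in IPC+IPO against IPO. With the covariate these component medians were 0.134 and 0.185, so which of them was larger depended on it. At an unadjusted p under 0.05, 5 of the 16 markers were higher as deposited (31.2%, against 1.45% of all genes). Among these were the macrophage receptors Adgre1 (0.32), Csf1r (0.304) and Cd163 (0.303), and Cd5l (0.369), a protein that macrophages secrete. The mean level of the list overlapped widely between groups: 7.32 to 7.91 in IPC, 7.01 to 8.08 in IPC+IPO, 6.64 to 7.94 in IRI, 6.74 to 8 in IPO and 6.92 to 7.93 in sham. Il1rn, the interleukin-1 receptor antagonist, was 5.35 to 7.03 in IPC (median 6.2), against 4.75 to 6.28 in IRI (median 5.59), and 5.72 to 6.88 in IPC+IPO (median 6.21), against 5.48 to 6.43 in IPO (median 5.88). Its main effect was 0.486 ± 0.132 (unadjusted p = 0.000587, adjusted p = 1). Cd86, a costimulatory molecule of antigen-presenting cells, was nearly equal in both comparisons, with 0.352 without and 0.329 with postconditioning. The part of macrophage numbers in Il1rn and Cd86 was not tested. Neutrophil markers had a median of -0.007 over 15 genes, and T, NK and B cell markers 0.042 over 17.

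Il15, a cytokine that sustains NK cells and memory T cells, was lower in both comparisons at an unadjusted p under 0.05. It was 4.99 to 5.88 in IPC (median 5.32), against 4.85 to 6.62 in IRI (median 5.68), and 4.79 to 5.78 in IPC+IPO (median 5.51), against 5.4 to 5.99 in IPO (median 5.76). Only 1 of 10 arrays in each preconditioned group lay above the median of its counterpart, and the main effect was -0.373 ± 0.107 (95% interval -0.589 to -0.158; unadjusted p = 0.00106, adjusted p = 1). Tia1, an RNA-binding protein of stress granules, was 5.41 to 5.87 in IPC (median 5.68), against 5.48 to 6.24 in IRI (median 5.8), and 5.44 to 5.94 in IPC+IPO (median 5.6), against 5.61 to 5.92 in IPO (median 5.79). Its main effect of -0.174 ± 0.054 was nearly the same in both comparisons, at -0.178 and -0.170. Sham livers had 5.89 to 6.47 (median 6.17), and 7 of the 40 ischemic arrays lay above the lowest sham array.

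Ushbp1, with the smallest p of all, was 5.15 to 5.61 in IPC (median 5.47), against 5.5 to 6.05 in IRI (median 5.74), and no IPC array reached the IRI median. In postconditioned livers it was 5.07 to 5.71 in IPC+IPO and 5.35 to 5.81 in IPO, with a median of 5.55 in both. The main effect was -0.229 ± 0.054 (95% interval -0.338 to -0.12; adjusted p = 1). Gsta3, a glutathione transferase, differed mainly in postconditioned livers, where it was 5.36 to 6.98 in IPC+IPO (median 6.13), against 5.93 to 8.24 in IPO (median 7.11), a difference of -0.973 ± 0.245 (unadjusted p = 0.000233, adjusted p = 0.677). All 10 IPC+IPO arrays lay below the IPO median. In the absence of postconditioning the Gsta3 difference was -0.186. H1f4, the linker histone H1.4, was higher in both comparisons at an unadjusted p under 0.05, by 0.354 ± 0.147 and 0.490 ± 0.147, with a main effect of 0.422 ± 0.104 (unadjusted p = 0.000181). Of the cytosolic ribosomal proteins 14 of 72 stood above 0 (19.4%, against 49.9% of all genes), 8 were lower at an unadjusted p under 0.05 (11.1%, against 1.82% of all genes), and the median was -0.074. The difference lay mainly in IPC against IRI, with a median of -0.144 and 19 lower at that level. In IPC+IPO against IPO the median was -0.014, with 0 lower. Erythroid and platelet markers, which follow blood left in the tissue, had a median of -0.091, with 1 of 11 above 0 and 0 at an unadjusted p under 0.05. Their median was -0.311 in IPC against IRI and 0.065 in IPC+IPO against IPO. The other genes of the 30 ranked first had main effects between -0.468 (Sec61g, a subunit of the protein channel of the endoplasmic reticulum) and 0.58 (Coq10b, a coenzyme Q binding protein), and none had an adjusted p below 1.

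The 2 component comparisons that make up the main effect differed in how many genes stood apart. IPC against IRI had 2799 genes at an unadjusted p under 0.05 (19.3%; 1451 higher, 10%), whereas IPC+IPO against IPO had 482 (3.32%; 250 higher, 1.72%) and 0 called (0%). The interaction had 2942 genes at an unadjusted p under 0.05 (20.3%) and 0 called (0%), with a smallest adjusted p of 0.166. With array spread as a covariate the genes at an unadjusted p under 0.05 were 1550 in IPC against IRI and 906 in the interaction, and without the 14 arrays of lowest spread they were 1340 and 837. Across the 14506 genes the differences of the 2 comparisons had a Pearson correlation of -0.516, and 26.8% had the same sign. These are descriptions over genes, which share arrays and are not independent replicates. Of the 2799 genes of IPC against IRI 17.6% had the same sign in IPC+IPO against IPO, and of the 482 genes of IPC+IPO against IPO 17.4% had the same sign in IPC against IRI. With array spread as a covariate the correlation was -0.081 and the same-sign share 48.6%. Without the 14 arrays of lowest spread they were 0.032 and 50.2%, and without the single IPC+IPO array of lowest spread they were -0.297 and 38.7%. The main effect called 0 genes with the covariate as well.

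Of the 14506 genes, 6 were at an unadjusted p under 0.05 in the same direction in both comparisons, and 87 in opposite directions. The 6 were H1f4, Adora2a and Cd86, which were higher, and Il15, Tia1 and Pbsn, which were lower. The comparisons had 2799 and 482 genes at that level, and unrelated lists of that size also overlap. Whether these 6 exceed such an overlap was not tested. With array spread as a covariate there were 23 and 31 such genes.

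**Figure D3:**
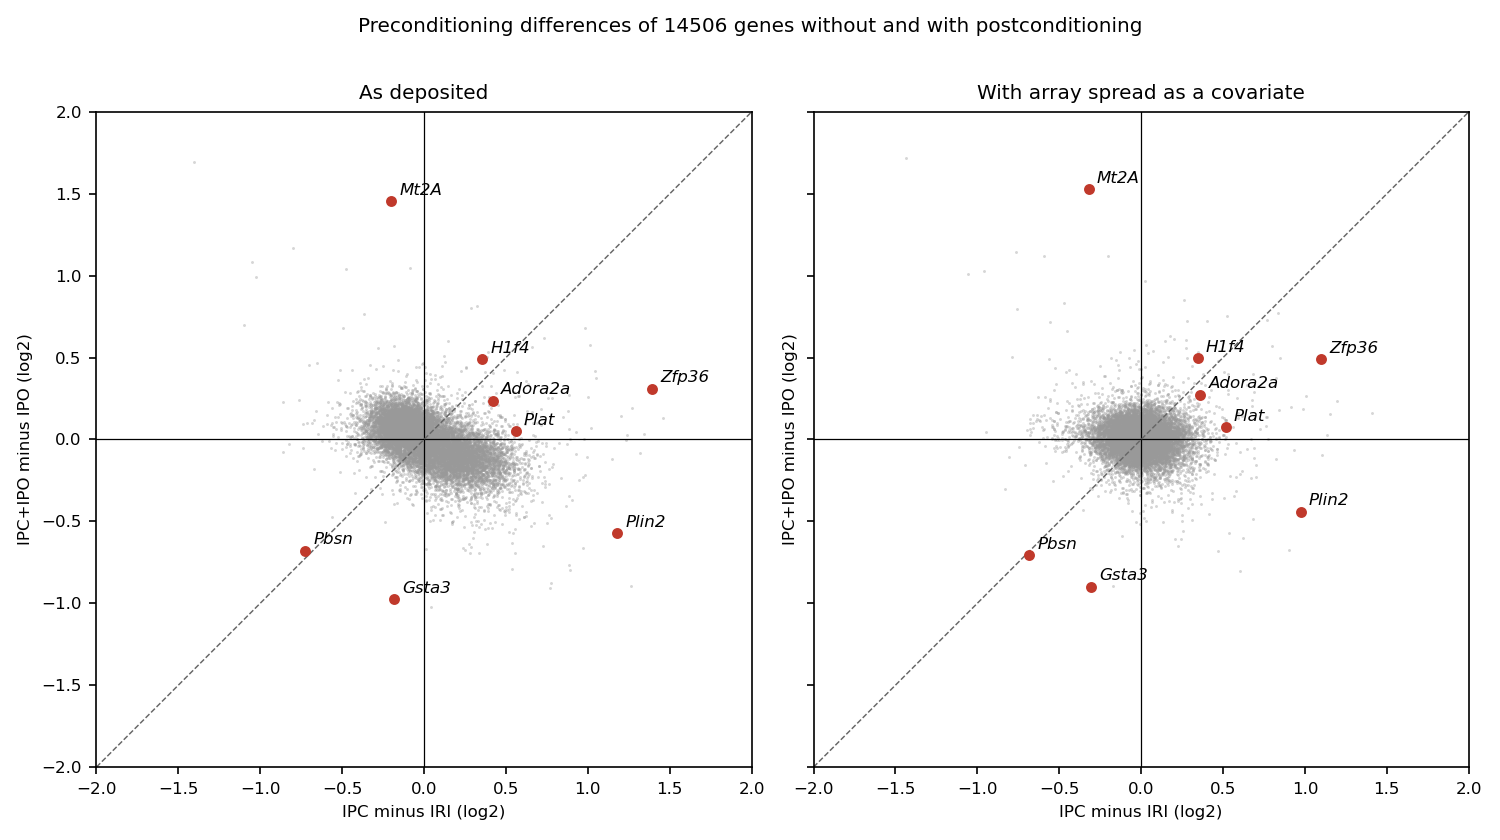
Each grey point is 1 of 14506 genes, with the difference IPC minus IRI on the horizontal axis and IPC+IPO minus IPO on the vertical axis (log2), as deposited on the left and with array spread as a covariate on the right, and the dashed line marks equal differences. The cloud slopes downward as deposited (Pearson r = -0.516) and has no slope of note on the right (r = -0.081), while Mt2A, Gsta3, Plin2 and Zfp36 lie outside it in both panels.

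Plin2 had the smallest p of the interaction. This coat protein of lipid droplets was 8.68 to 10.27 in IPC (median 9.61), against 6.63 to 9.48 in IRI (median 8.65), and 7.85 to 9.82 in IPC+IPO (median 8.85), against 8.95 to 9.95 in IPO (median 9.45). The difference was 1.179 ± 0.254 without and -0.570 ± 0.254 with postconditioning, the interaction -1.749 ± 0.359 (adjusted p = 0.166), and the main effect 0.305 ± 0.179. Dnajb4, a co-chaperone of HSP70, had 0.737 and -0.292 in the same comparisons. Lists of proteostasis and RNA processing had medians of opposite sign as well: 0.194 and -0.19 for 22 cytosolic heat shock chaperones, 0.246 and -0.298 for 28 splicing factors, 0.211 and -0.2 for 21 nucleolar ribosome biogenesis factors, and 0.342 and -0.173 for 25 genes of lipid and cholesterol synthesis. Their main-effect medians were 0.01, 0.001, -0.011 and 0.032, with 0 genes called in each. These lists move with the spread of the arrays: with it as a covariate the medians were 0.037 and -0.092 for heat shock chaperones, 0.065 and -0.151 for splicing factors, 0.079 and -0.113 for nucleolar factors, and 0.176 and -0.104 for lipid and cholesterol synthesis. Its part in them was not otherwise tested.

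The metallothioneins had their larger difference in postconditioned livers, without passing the test. Mt2A, a zinc-binding protein induced by metals and glucocorticoids, was 10.52 to 12.89 in IPC+IPO (median 11.88), against 9.71 to 11.37 in IPO (median 10.5), and all 10 IPC+IPO arrays lay above the IPO median. It was 9.81 to 12.68 in IPC (median 11.96) and 11.47 to 12.56 in IRI (median 11.97). The difference was 1.454 ± 0.307 with postconditioning (adjusted p = 0.229) and -0.201 ± 0.307 without it, and the interaction was 1.655 ± 0.434 (adjusted p = 0.181). Mt1 had 1.05 ± 0.244 and -0.088 in these comparisons. Without 1 IPC+IPO array, that of rat 34, both were called in IPC+IPO against IPO, Mt2A at 1.611 (limma, adjusted p = 0.0393) and Mt1 at 1.199 (adjusted p = 0.0405). Rat 34 had the lowest level of both genes in its group (10.52 and 10.91), so its omission widens the difference. With any of the other 39 ischemic arrays left out, no gene was called in this comparison.

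**Figure D4:**
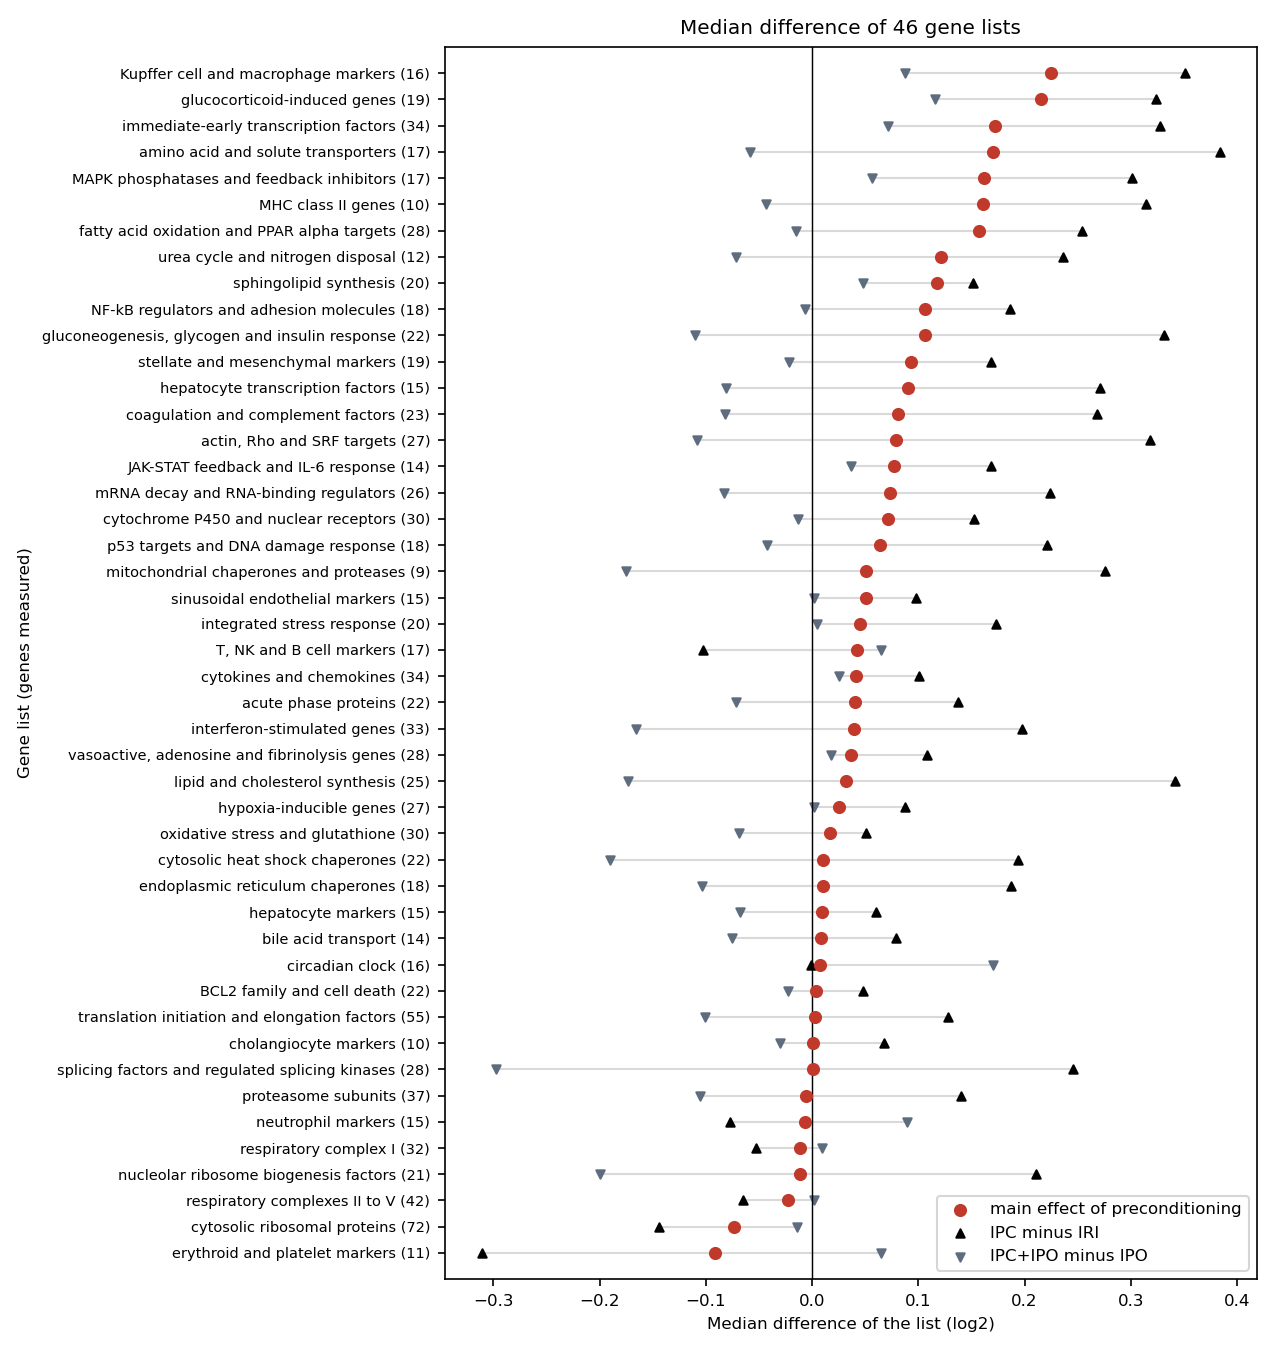
For each of 46 gene lists, with its number of measured genes in parentheses, the circle is the median main effect of preconditioning, the upward triangle the median of IPC minus IRI and the downward triangle that of IPC+IPO minus IPO (log2). Main-effect medians run from -0.091 for erythroid and platelet markers to 0.225 for Kupffer cell and macrophage markers, and heat shock, splicing and nucleolar lists have triangles on both sides of 0.

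With array weights, which count arrays of noisy values less, the 51 called genes comprised 41 higher and 10 lower in preconditioned livers. They included 16 of the 30 genes ranked first, and 48 were at an unadjusted p under 0.05 in the unweighted fit (3.27% of all genes). As deposited, 37 had the same sign in both comparisons, and so did 26.8% of all genes. The weighted fit used the same arrays, and a call in a pooled effect favours equal signs. These counts are thus no separate evidence. The lowest weights fell on the IPC+IPO and IRI arrays of lowest spread (0.0968 and 0.101). In the unweighted fit 858 genes were at an unadjusted p under 0.05 without the 14 arrays of lowest spread, 916 with spread as a covariate, and 475 as deposited. Other lists held some genes that were higher at that level, against 1.45% of all genes: 4 of 26 regulators of mRNA decay and RNA binding (15.4%), 3 of 18 p53 targets and DNA damage genes (16.7%), 3 of 20 genes of sphingolipid synthesis (15%), 2 of 16 clock genes (12.5%; Bhlhe40 and Nfil3) and 4 of 34 cytokines and chemokines (11.8%; Il1rn, Cxcl9, Il6 and Cxcl11). No gene was at that level among 15 hepatocyte markers, 22 cytosolic heat shock chaperones, 28 splicing factors and 25 genes of lipid and cholesterol synthesis. None of these lists held a called gene. Il6 was dim, with medians of 3.59 in IPC, 3.5 in IRI, 3.46 in IPC+IPO and 3.28 in IPO, and a single IPC array at 5.43. Cxcl9 and Cxcl11 had 0.873 and 0.677 in IPC against IRI, but -0.026 and 0.023 in IPC+IPO against IPO.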

How the data were processed

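The authors hybridised liver RNA of 48 rats to Affymetrix arrays and deposited RMA values, made with Affymetrix Expression Console per the submitters' processing notes, as log2 expression per probe set (29215 probe sets, 0 missing values). RMA corrects background, quantile-normalises and summarises probes, and the SD of an array's gene values ran from 1.498 to 1.965 in the deposited table. Of the probe sets, 15310 had 1 gene symbol, 323 several and 13582 none, and 15279 matched the RefSeq GRCr8 gene table by gene ID. The probe set of highest mean stood for each of 14506 genes. No depth exists for arrays, and their number limits the precision. Nothing given in the sources used here states hybridisation batches. Samples are separate rats by their numbers, so p-values measure the spread between rats.

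A linear model over the 5 groups (limma 3.58.1, R 4.3.3, 43 residual degrees of freedom) gave the main effect, both component comparisons and the interaction, with Benjamini-Hochberg adjustment. Its steps were tested on simulated data. Array spread was compared by a permutation test. The named genes were the 15 in each direction with the smallest main-effect p (called genes would have gone first), the 3 of smallest interaction p, the up to 4 members of each list with the smallest main-effect p, and Plat, Lsm12, Apln and Or4c58. The 38 pathway and 8 marker lists and all comparisons were chosen with earlier results of these data known. Alternatives were other groups in the fit, variance models, array weights, filters, probe set choices, normalizations, thresholds, a covariate for array spread, omission of the 14 lowest-spread arrays, and omission of each of the 40 ischemic arrays in turn. Promoter sequences are from RefSeq (GRCr8). Figures were drawn with matplotlib 3.10.9.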

Additional observations from a re-analysis of the deposited data

Results flagged for a closer look

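Among 285 groups of values checked (56 genes and the array spread, in 5 groups each), 23 held an array far from the others by Dixon's test, where chance gives about 1 in 20. Some fell on the arrays of lowest spread. In IPC+IPO, rat 38, of the lowest spread in that group, was highest for Ly6g6c (6.31, against 5.71 for the next) and Il6 (4.08, against 3.6) and lowest for Retsat (8.27, against 10.13). In IRI, rat 7, again of the lowest spread, was lowest for Dnajb4 (5.16, against 5.95) and Cxcl11 (5.95, against 7.07) and highest for Spry4 (7.14, against 6.47). In IPO, rat 30 had the lowest spread (1.749, against 1.86) and was highest for Or10ak7b (4.35, against 4.11).

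The other IPC+IPO arrays apart were rat 39, highest for Pbsn (6.03, against 4.47), and rat 37, lowest for Nfil3 (6.85, against 8.01). In IPC, rat 12 was lowest for Mt2A (9.81, against 11.25) and Retsat (8.98, against 10.29), rat 11 highest for Spry4 (6.9, against 6.39) and rat 18 highest for Il6 (5.43, against 4.19). In IRI, rat 5 was highest for Atf3 (10.96, against 8.47). In IPO, rat 22 was highest for Myc (8.1, against 6.88) and Nfil3 (9.46, against 8.75), rat 21 highest for Cxcl9 (8.15, against 7.27), rat 24 lowest for Sema3d (4.48, against 4.72) and rat 25 lowest for Retsat (9.05, against 10.21). Among sham arrays, rat 43 was highest for Klrc3 (4.98, against 4.46) and Adgre1 (6.54, against 5.93), and rat 47 highest for Pbsn (4.77, against 3.89).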

How the results depend on the processing

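No paired analysis was possible because each rat number from 1 to 48 occurs in a single group. The main effect was followed over the settings for 56 genes, namely the 30 ranked first, those called or ranked first in the other comparisons, and 23 more whose values the text gives or which it singles out by size. It kept its direction in all 552 values over 10 settings, and 24 of these passed the threshold where the deposited-value fit did not, Retsat without the 14 arrays of lowest spread and the others with array weights. It also kept its direction in all 2240 values with a single array left out. Most of these genes were picked for their values in these data, and each setting refits the same arrays or most of them. A change of direction was thus unlikely from the start, and the counts are no separate evidence for the differences. The count of calls in the main effect (0) was 51 with array weights and 1 without the 14 arrays of lowest spread, and 0 with any single array left out. The count in IPC against IRI (4) was 0 with only the 4 ischemic groups fitted, with trended and robust eBayes, with renewed quantile normalization, with array spread as a covariate, with at least a 1.5-fold change, and at an adjusted p under 0.01. It was 568 with array weights and 9 over all probe sets, 6 without the dimmest 33.3% of genes and 6 with arrays centred on their medians, and 0 to 252 with a single array left out, the highest without the array of IRI rat 1. In IPC+IPO against IPO (0) it was 12 with array weights and 0 to 2 with a single array left out. In the interaction (0) it was 189 with array weights, 1 without the 14 arrays of lowest spread (Foxn1, 0.475, adjusted p = 0.0307), and 0 to 8 with a single array left out, again highest without IRI rat 1. The cause was not tested. The spread difference between the 90th and 10th percentile was 0.0577 (permutation p = 0.642). Genes dim on these arrays were not tested apart from the filter named above.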
